A study of Homo sapiens with 9 samples.

Results

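The genes described here are 46 genes of the interferon response and of antigen presentation by MHC class I, chosen by name from a list. Each has a value in all 9 libraries, which list 23619 genes, and 2 of the 46 were at 0 in at least 1 library. Of the 46 genes, 42 passed the filter on low counts, and 15532 of the 23619 genes were tested. The libraries are of RKO, a human colorectal cancer cell line, and of RKO clones in which recombinant adeno-associated virus had been used to delete part of exon 9 of DIP2C. There were 2 parental samples, 2 clones with both DIP2C alleles targeted (DIP2C-/-, clones E3 and C10) and 5 clones with 1 targeted allele (DIP2C+/-, clone F6-A7, then H9-A4 and A9-A12, and lastly G1-A5 and A6-C9). Cells were harvested after 48 h of growth, and each sample gave 1 library. Values below follow this order of samples. The clones were grown from single cells after exposure to the viral construct, selection with Geneticin and removal of the selection cassette by adenoviral Cre, and no clone that passed through these steps with DIP2C intact is among the samples. According to the methods of the study, DIP2C-/- clones came from a further round of targeting in a DIP2C+/- clone, so they are not independent of each other or of the heterozygous state. The labels list more DIP2C+/- clones than the study describes, and which of them share an origin was not given in the sources used here, so the DIP2C+/- clones may not be independent replicates. The labels do not say whether the parental samples are separate cultures, and p-values measure only the spread between these samples.

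Interferons are secreted when a cell senses viral nucleic acid. They bind surface receptors whose kinases activate STAT proteins, and STAT2 joins IRF9 in a complex that binds the interferon-stimulated response element in front of the genes it induces. MHC class I molecules, heavy chains paired with the light chain B2M, display peptides that the proteasome cuts, TAP carries into the endoplasmic reticulum and ERAP enzymes trim. The genes of this display are expressed in nearly all nucleated cells, are raised by interferon and by the coactivator NLRC5, and are often lowered in colorectal tumours that lack mismatch repair, the class to which RKO belongs.

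DIP2C, the targeted gene, was at 61 and 70.8 CPM in the parental samples, 17.4 and 22.8 CPM in the DIP2C-/- clones and 47, 56.3, 38.9, 41.7 and 33.6 CPM in the DIP2C+/- clones. Both DIP2C-/- clones were below every other sample, and clone H9-A4 was nearest to the parental samples. The log2 fold change of the DIP2C-/- clones against parental cells was -1.71 ± 0.25 (SE, edgeR adjusted p = 0.0998), and that of the DIP2C+/- clones was -0.60 ± 0.20 (SE, edgeR adjusted p = 0.386). Without H9-A4, DIP2C fell by 1.71 ± 0.21 in the former and by 0.71 ± 0.17 in the latter on the log2 scale (SE, edgeR adjusted p = 0.00103 and 0.0285). The value covers the whole gene and not the deleted piece alone. Deposited totals were 14772593 to 21486483 estimated counts per sample, so that 3 counts correspond to 0.14 to 0.203 CPM (counts per 1000000 counts of the library). Clone H9-A4 stood apart. Over pairs of samples of 1 group, chi-square per degree of freedom was 16.4 to 95.2, with the 4 pairs that hold H9-A4 at the top of the range, and edgeR's biological coefficient of variation was 0.297 with all 9 samples and 0.242 without this clone. Results are therefore given with and without it. Of 7 epithelial markers, KRT18 was at 121 to 293 CPM, KRT8 at 7.02 to 21.4 CPM and CDX2 at 15.6 to 19.8 CPM, while EPCAM, KRT19, CDH1 and VIL1 did not exceed 3.79, 0.227, 0.698 and 0.937 CPM. The 6 immune markers summed to 1.54 to 2.51 CPM in the parental samples and 1.23 to 2.13 CPM in the clones. These are bulk samples of a cultured line, in which fewer cells that express a gene and less RNA per cell cannot be told apart.

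In parental RKO cells, class I display was expressed strongly while many of the classical interferon-induced genes were near the detection floor. Per kb of the annotated transcript, the highest levels were B2M at 384 CPM per kb, HLA-C at 269, the virion tether BST2 at 175, the ubiquitin-like modifier ISG15 at 97.7, HLA-E at 46, HLA-B at 40.4 and the peptide transporter subunit TAP1 at 39.5 CPM per kb. At the other end were MX2 at 0.0702, IFI44L at 0.0784 and OASL at 0.0887 CPM per kb. Members of 1 family differed widely in level. OAS3, one of the enzymes that make the 2-5A signal for RNase L, was at 16.1 CPM per kb, and its chromosomal neighbours OAS1 and OAS2 were at 0.13 and 0.175 CPM per kb. IFIT5 was at 9.24 CPM per kb, against 0.436, 0.311 and 1.12 CPM per kb for IFIT1, IFIT2 and IFIT3, which lie in the same cluster. The GTPase MX1 was at 27.5 CPM per kb, against the value given above for MX2. Over all 9 samples, 8 genes had a mean of at least 100 CPM, 18 had a mean of 10 to 100 CPM, 12 of 1 to 10 CPM and 8 of under 1 CPM.

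**Figure D1:**
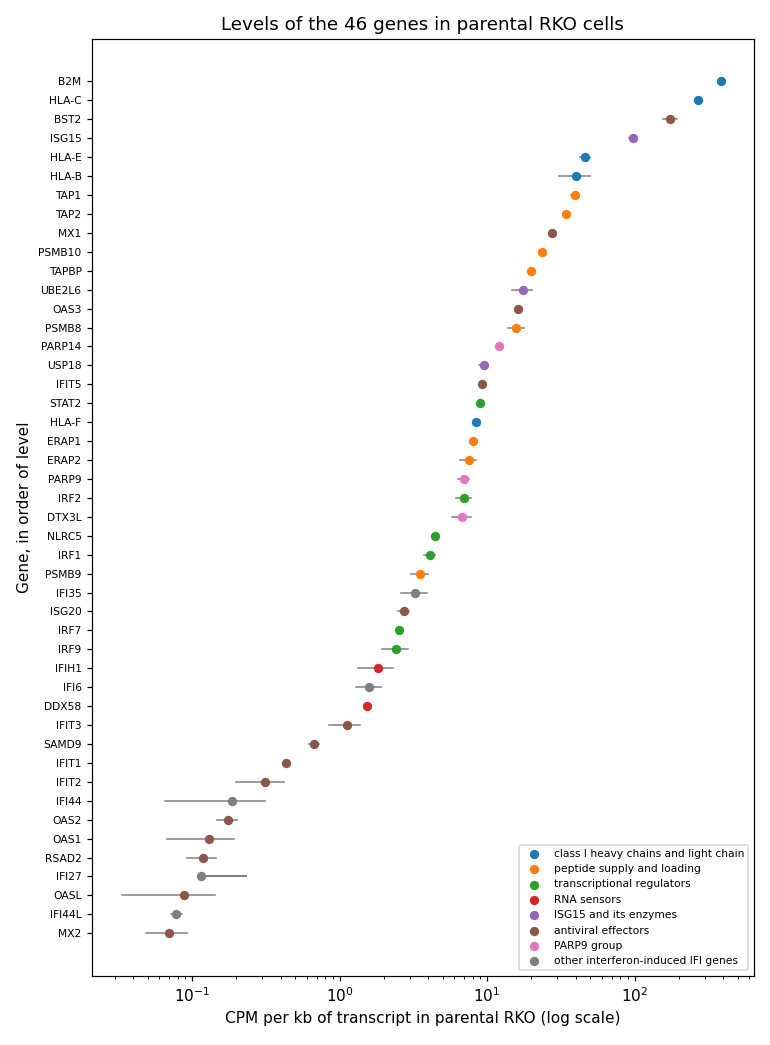
Level of each of the 46 genes in parental RKO cells in CPM per kb of transcript, on a log axis, ordered by level and coloured by role. Points are means of 2 parental samples and lines span both samples, with a sample at 0 not drawn. B2M and HLA-C are highest, at 384 and 269 CPM per kb, and MX2 is lowest at 0.0702 CPM per kb.

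The 4 genes that did not pass the filter were OAS1, the radical enzyme RSAD2, IFI27 and IFI44. OAS1 was at 0 to 0.516 CPM, RSAD2 at 0.148 to 0.496 CPM, IFI27 at 0 to 0.165 CPM and IFI44 at 0.0511 to 0.591 CPM over the 9 samples. No gene of the 10 interferon ligands listed with the pathway was tested either. None of the ligands exceeded 8 estimated counts in a sample, and the ligand IFNL3 was at 0 in every sample.

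Short promoter stretches with a match are shown for some genes near the top and near the bottom of this order and for some that recur below. They were picked among genes with a match and do not represent the order. RefSeq promoter windows, from 250 bases before to 50 bases after a start site, were found for 37 of the 46 genes and matched GRCh37 exactly. The core of the interferon-stimulated response element was searched on both strands as a pair of GAAA blocks with 2 bases between them, or TTTC blocks where it lies on the other strand. At least 1 match was present for 27 of the 37 genes (72.97%), against 4.376% of 27305 genes with a window. The core of the gamma-activated site, TTCNNNGAA, was present for 10 of the 37 genes (27.03%), against 9.376%. The 2 motifs can overlap in 1 stretch. Sequences are from RefSeq on GRCh37, 5′ to 3′ on the strand of the gene, with matches in capitals and positions counted from the start site.
B2M, chr15:45003564-45003593, plus strand, match from -144 to -129: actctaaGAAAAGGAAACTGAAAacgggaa
BST2, chr19:17516547-17516576, minus strand, match from -130 to -115: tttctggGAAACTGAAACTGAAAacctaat
ISG15, chr1:948757-948786, plus strand, match from -113 to -98: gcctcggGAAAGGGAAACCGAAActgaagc
IFIT1, chr10:91152261-91152289, plus strand, match from -116 to -94: tagTTTCACTTTCcccTTTCGGTTTCcct
IFI27, chr14:94576971-94576999, plus strand, match from -108 to -86: cagTTTCGGTTTCctgGAAAATGAAAcct
RSAD2, chr2:7017753-7017782, plus strand, match from -145 to -136: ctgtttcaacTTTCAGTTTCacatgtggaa
OAS3, chr12:113376126-113376155, plus strand, match from -143 to -134: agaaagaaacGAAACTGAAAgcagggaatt
OAS3, chr12:113376257-113376286, plus strand, match from -12 to -3: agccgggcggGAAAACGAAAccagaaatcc
SAMD9, chr7:92747409-92747438, minus strand, match from -136 to -127: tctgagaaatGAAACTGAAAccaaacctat
IFI35, chr17:41158769-41158797, plus strand, match from -22 to -14: aggcagggatTTCACGGAAatgaaagtgg
The capitals mark response element matches in all of these except IFI35, where they mark the gamma-activated site. In B2M, BST2 and ISG15, among the 4 highest genes per kb, 3 GAAA blocks followed each other and formed 2 overlapping matches. IFIT1 and IFI27 also carried 2 matches each, on opposite strands in IFI27, although both genes were at under 2 CPM in every sample. No response element match was present in the windows of HLA-B, HLA-C, STAT2 or IFI35, and HLA-E and IRF7 had no window. A match in letters is a description of the window and says nothing of what binds there. The search took exact matches only, so a window without one may still hold a variant of the element.

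Against the parental samples, the 42 genes did not move in 1 direction. Over all 7 clones the class I genes HLA-B and HLA-E, the immunoproteasome subunit PSMB8, SAMD9 and IFI35 were higher in most clones, and OAS3 and IRF7 were lower in all of them, but edgeR called none of these with all 9 samples. The median log2 fold change of the 42 genes was 0.13, against 0.02 over all genes tested, with 24 genes above and 18 below 0. In the DIP2C-/- clones it was -0.06, against 0.02, with 19 genes above and 23 below 0. In the DIP2C+/- clones it was 0.15, against 0.02, with 28 genes above and 14 below 0. The 3 comparisons share the parental samples.

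With edgeR and all 9 samples, the adjusted p-value was under 0.05 for 0 of the 42 genes over all 7 clones (background over all genes, 0.18%), in the DIP2C-/- clones (0.00644%) or in the DIP2C+/- clones (0.0966%). The same fit did not call the targeted gene DIP2C in the DIP2C-/- clones (log2 fold change -1.71, edgeR adjusted p = 0.0998). A count of 0 therefore does not show that no gene changed. At an unadjusted p-value under 0.05, the counts were 4 over all clones (HLA-B higher, and ERAP1, IRF7 and OAS3 lower, background 13.4%), 2 in the DIP2C-/- clones (IFIH1 and OAS3, both lower, 12.7%) and 3 in the DIP2C+/- clones (TAPBP higher, and ERAP1 and OAS3 lower, 11.6%). DESeq2 called 0 over all clones (1.96%), 1 in the DIP2C-/- clones (OAS3, lower, 1.91%) and 0 in the DIP2C+/- clones (1.24%). A fit of only the parental and DIP2C-/- samples called 4 genes (9.52% of 42), with HLA-B, B2M and SAMD9 higher and OAS3 lower, where 11.7% of all genes were called.

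Clone H9-A4 was singled out from these same data, and adjusted p-values without it do not allow for that choice. Over all genes, edgeR called 0.18% in the contrast of all 7 clones and 8.95% when H9-A4 was left out. Without clone H9-A4, edgeR called 3 genes over the remaining 6 clones, which are the clones meant by all clones in such fits. HLA-E and IFI35 rose, 2 of 42 where 4.48% of all genes rose, and OAS3 fell, 1 of 42 where 4.47% fell. In the DIP2C+/- clones, HLA-E, STAT2 and IFI35 rose (background 4.37%) and 0 fell (3.58%). In the DIP2C-/- clones, 0 rose (2.32%) and OAS3 fell (2.44%). By DESeq2 without H9-A4 the counts in both directions were 8 over all clones (19% of 42, background 13.7%), 10 in the DIP2C+/- clones (23.8%, background 12.7%) and 3 in the DIP2C-/- clones (7.14%, background 9.33%). The 8 over all clones were HLA-B, HLA-E, STAT2, ISG20, SAMD9 and IFI35, which rose, and IRF7 and OAS3, which fell.

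**Figure D2:**
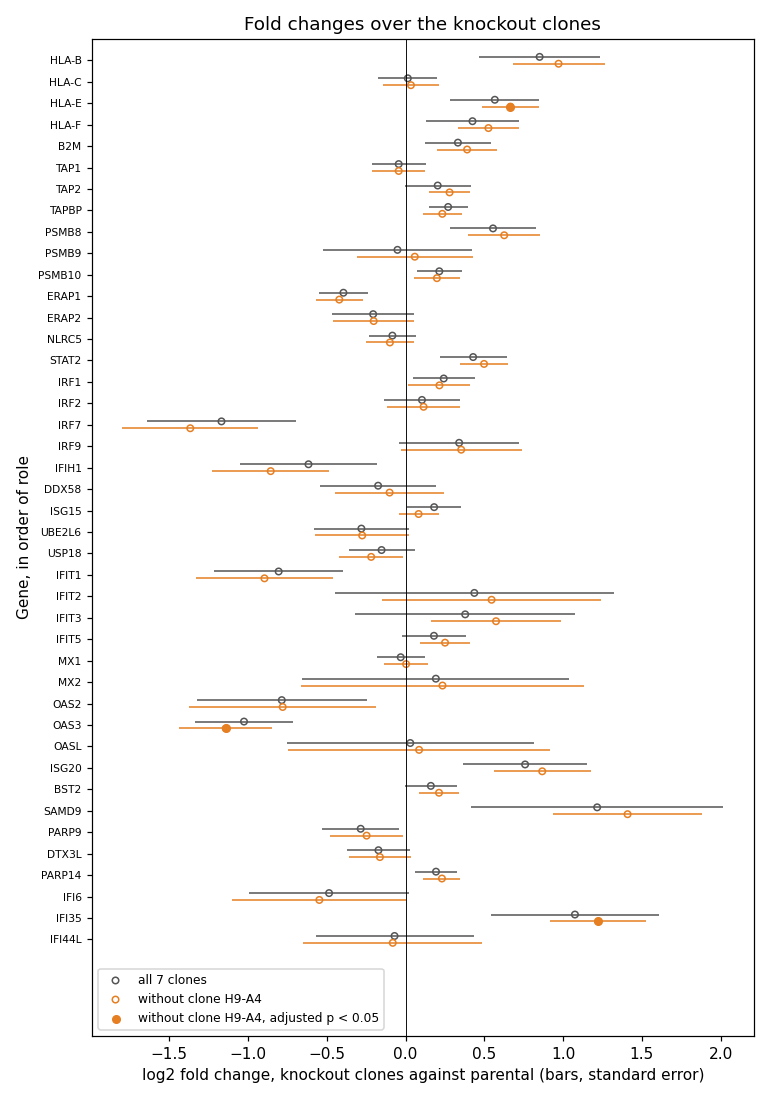
Log2 fold change of the knockout clones against parental cells for each of the 42 genes tested by edgeR, with bars for the standard error, with all 7 clones (grey) and without clone H9-A4 (orange). Filled points have an adjusted p-value under 0.05 and are HLA-E, OAS3 and IFI35, all without H9-A4.

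Separation of the clones from the parental samples was counted on log2 CPM. All 7 clones were above both parental samples for 0 of the 42 genes (background 5.41%) and below both for 4, namely ERAP1, IRF7, IFIT1 and OAS3 (5.54%). The 6 clones other than H9-A4 were above both parental samples for 8 genes (12.4%), which were HLA-B, HLA-E, HLA-F, TAP2, STAT2, ISG20, PARP14 and IFI35, and below both for the same 4 genes (11.5%). Both DIP2C-/- clones were above the parental samples for 12 genes (26.9%) and below for 15 (26.3%). All 5 DIP2C+/- clones were above for TAPBP and PSMB10 (7.15%) and below for 4 genes (7.11%).

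Single clones have no replicate and were read by size of change alone. SAMD9 was the 1 gene at least 2-fold above the parental mean in 4 or more clones (background 4.15%), and IRF7 and OAS3 were at least 2-fold below it in 4 or more clones (3.69%). In either direction, 5 of the 42 genes were at least 2-fold from the parental mean in E3 (background 14.4%), 9 in C10 (11.9%), 6 in F6-A7 (14.1%), 4 in H9-A4 (7.44%), 3 in A9-A12 (13.9%), 6 in G1-A5 (12%) and 10 in A6-C9 (14%). The 2 parental samples differed by at least 2-fold for 1 gene, OASL (7.9%). The median difference of the 42 genes from the parental mean ranged from -0.19 on the log2 scale in H9-A4 to 0.31 in G1-A5.

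**Figure D3:**
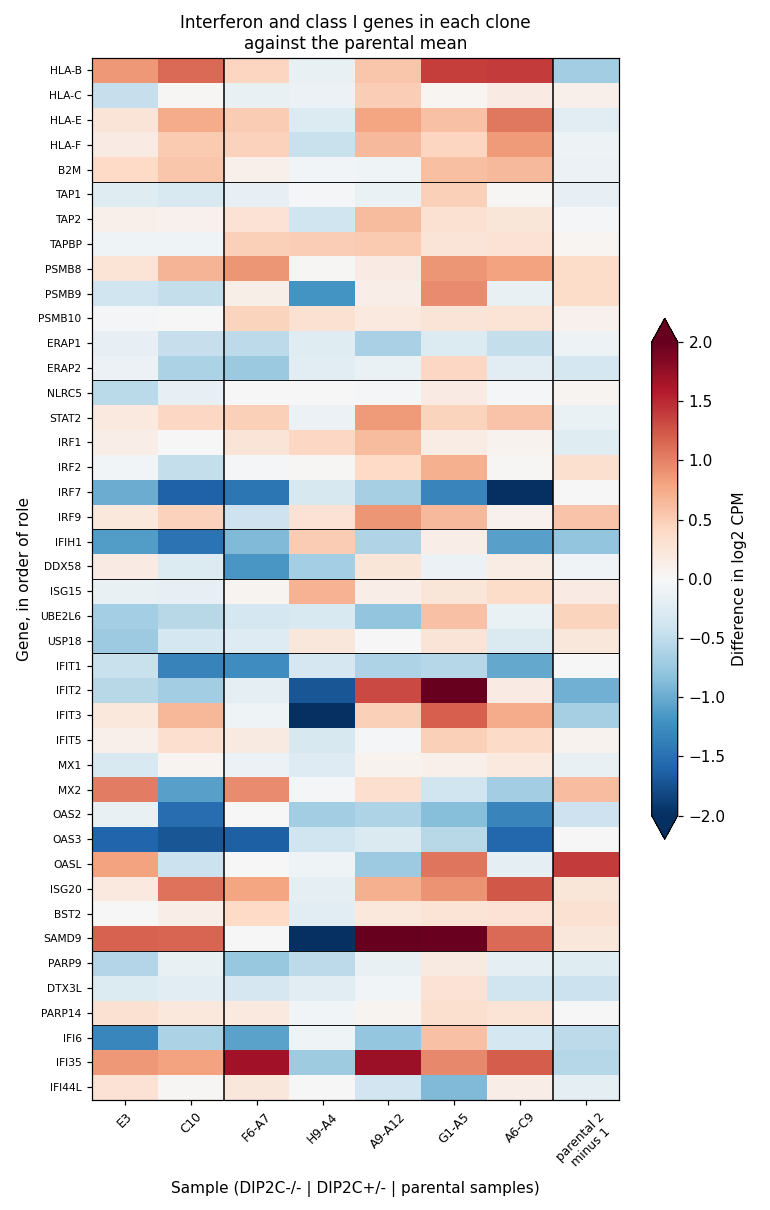
Difference in log2 CPM between each of the 7 clones and the parental mean for the 42 genes tested, grouped by role, with the difference between the parental samples in the last column. Colours end at 2 on the log2 scale in either direction. OAS3 and IRF7 are lower in each clone, IFI35 and the class I genes HLA-B, HLA-E and HLA-F are higher in each clone but H9-A4, and SAMD9 runs from the lowest value in H9-A4 to the highest in A9-A12.

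Among the class I chains, HLA-B and HLA-E were higher in most clones, HLA-C gave no clear direction and the light chain B2M was higher in 4 clones. HLA-B (chr6:31321649-31334844, minus strand, GRCh37), a classical heavy chain, was at 76.7 and 47.5 CPM in the parental samples, 110 and 133 CPM in the DIP2C-/- clones and 81.7, 54.6, 88.7, 158 and 159 CPM in the DIP2C+/- clones. Every clone but H9-A4 was above both parental samples, which themselves lay far apart. Its log2 fold change over all clones was 0.85 ± 0.38 (SE, edgeR adjusted p = 0.37) and 0.97 ± 0.29 without clone H9-A4 (SE, edgeR adjusted p = 0.0651). HLA-E (chr6:30457286-30461971, plus strand), the heavy chain that shows leader peptides to natural killer cells, was at 127 and 108 CPM in the parental samples, 139 and 195 CPM in the DIP2C-/- clones and 166, 97, 201, 176 and 242 CPM in the DIP2C+/- clones. Again only H9-A4 lay outside the higher group, at a level below both parental samples, and the log2 fold change of HLA-E was 0.57 ± 0.28 (SE, edgeR adjusted p = 0.408) and 0.67 ± 0.18 without clone H9-A4 (SE, edgeR adjusted p = 0.044). HLA-F also had its lowest value in H9-A4, and it ran from 9.17 CPM in H9-A4 to 22.5 CPM in A6-C9.

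HLA-C, the other classical heavy chain of the list, was at 401 and 429 CPM in the parental samples, 300 and 422 CPM in the DIP2C-/- clones and 373, 381, 581, 428 and 463 CPM in the DIP2C+/- clones. The groups overlapped, with the lowest value in E3 and the highest in A9-A12, and the log2 fold change was 0.01 ± 0.19 (SE, edgeR adjusted p = 0.983). B2M, the light chain shared by all class I molecules, was at 378 and 347 CPM in the parental samples, 477 and 531 CPM in the DIP2C-/- clones and 388, 347, 343, 547 and 567 CPM in the DIP2C+/- clones. E3, C10, G1-A5 and A6-C9 were above both parental samples by a wide margin, and F6-A7, H9-A4 and A9-A12 were close to them. The log2 fold change was 0.33 ± 0.21 (SE, edgeR adjusted p = 0.517) over all clones and 0.48 ± 0.26 (SE, edgeR adjusted p = 0.462) in the DIP2C-/- clones. HLA genes share long stretches of sequence, so how the reads were divided between them by the estimated counts is uncertain. HLA-B, HLA-C, HLA-E, HLA-F, TAP1, TAP2, TAPBP, PSMB8 and PSMB9 lie together on chromosome 6 (chr6:29690552-33282061, GRCh37), and their directions differed within that region.

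Of the 8 genes of peptide supply and loading, PSMB8 was higher and ERAP1 lower in the clones, and edgeR called none of the 8 with or without H9-A4. DESeq2 without H9-A4 called PSMB8 higher in the DIP2C+/- clones. PSMB8, an immunoproteasome subunit that replaces PSMB5 of the constitutive proteasome, was at 15.5 and 19.99 CPM in the parental samples, 21.2 and 28.4 CPM in the DIP2C-/- clones and 32.5, 17.9, 19.7, 32.5 and 30.7 CPM in the DIP2C+/- clones. Only H9-A4 and A9-A12 lay within the range of the parental samples. Over all clones PSMB8 had a log2 fold change of 0.56 ± 0.27 (SE, edgeR adjusted p = 0.401), and of 0.63 ± 0.23 without clone H9-A4 (SE, edgeR adjusted p = 0.121). Per kb, PSMB8 was 4.17% and 4.68% of PSMB5 in the parental samples and 4.19% to 8.01% in the clones, with a median of 7.19%. For the other immunoproteasome subunits the parental values lay inside the range of the clones. PSMB9 was 1.48% of its counterpart PSMB6 in both parental samples and 0.732% to 2.48% in the clones, and PSMB10 was 7.41% to 7.98% of PSMB7 in the parental samples and 6.64% to 9.87% in the clones.

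ERAP1, an aminopeptidase that trims peptides to the length class I binds, was at 40.5 and 37.8 CPM in the parental samples, 34.8 and 28.5 CPM in the DIP2C-/- clones and 27.2, 32.9, 24.9, 32.4 and 27.9 CPM in the DIP2C+/- clones. All 7 clones were below both parental samples, by a small amount, with a log2 fold change of -0.39 ± 0.16 (SE, edgeR adjusted p = 0.332) and -0.42 ± 0.15 without clone H9-A4 (SE, edgeR adjusted p = 0.115). TAP1, a subunit of the peptide transporter, was at 112 and 100.2 CPM in the parental samples, 89.3 and 86 CPM in the DIP2C-/- clones and 94.5, 103, 96.8, 148 and 107 CPM in the DIP2C+/- clones. G1-A5 stood alone above the parental samples and the log2 fold change was -0.04 ± 0.17 (SE, edgeR adjusted p = 0.942). TAP2, its partner subunit, was at 196 and 193 CPM in the parental samples, 208 and 207 CPM in the DIP2C-/- clones and 237, 148, 299.9, 239.6 and 229.8 CPM in the DIP2C+/- clones. Every clone but H9-A4 was above the parental samples, with a log2 fold change of 0.20 ± 0.21 (SE, edgeR adjusted p = 0.716). The remaining genes of this role had log2 fold changes of 0.27 for the TAP-bound chaperone TAPBP, 0.21 for PSMB10, -0.05 for PSMB9 and -0.21 for ERAP2, and edgeR called none of these. In the GENCODE gene spans, PSMB9 overlaps TAP1 and PSMB8 on opposite strands. By the RefSeq start sites, TAP1 and PSMB9 point away from each other and do not overlap. The study took its gene coordinates with the UCSC genome, and no statement that strand was used in the counting was found. Whether reads were shared between these genes was not tested.

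Among the transcriptional regulators, IRF7 was lower in every clone and STAT2 higher in every clone but H9-A4, and edgeR called neither over all clones, with or without H9-A4. DESeq2 called both over all clones without H9-A4, as given above. IRF7 (chr11:612553-615983, minus strand), the factor that amplifies type I interferon production, was at 4.85 and 4.86 CPM in the parental samples, 2.39 and 1.5 CPM in the DIP2C-/- clones and 1.71, 3.85, 3.01, 1.87 and 0.817 CPM in the DIP2C+/- clones. The highest clone, H9-A4, was still below both parental samples, which were almost equal. On the log2 scale IRF7 differed by -1.17 ± 0.47 (SE, edgeR adjusted p = 0.332), and by -1.37 ± 0.43 without clone H9-A4 (SE, edgeR adjusted p = 0.0775). STAT2, the signal transducer specific to type I and type III interferons, was at 41.5 and 38 CPM in the parental samples, 45.2 and 53 CPM in the DIP2C-/- clones and 55.4, 36.8, 71.4, 53.9 and 59.2 CPM in the DIP2C+/- clones. Over all clones its log2 fold change was 0.43 ± 0.21 (SE, edgeR adjusted p = 0.408). Without H9-A4, STAT2 rose in the DIP2C+/- clones, by 0.59 ± 0.16 (SE, edgeR adjusted p = 0.0446). IRF9, IRF1, IRF2 and the class I coactivator NLRC5 had log2 fold changes over all clones of 0.34, 0.24, 0.10 and -0.08, with adjusted p-values from edgeR of 0.746, 0.623, 0.895 and 0.861.

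The RNA sensors were low in all samples. IFIH1, which encodes the long double-stranded RNA sensor MDA5, was at 8.27 and 4.75 CPM in the parental samples, 2.84 and 2.18 CPM in the DIP2C-/- clones and 3.35, 9.0, 4.08, 6.85 and 2.91 CPM in the DIP2C+/- clones. Both DIP2C-/- clones were below the parental samples, and the DIP2C+/- clones ran from below to above them. In the DIP2C-/- clones IFIH1 had a log2 fold change of -1.38 ± 0.58 (SE, edgeR adjusted p = 0.373), and over all clones it was -0.62 ± 0.44 (SE, edgeR adjusted p = 0.562). DDX58, which encodes RIG-I, the sensor of triphosphate RNA ends, was at 7.33 and 6.94 CPM in the parental samples, 8.0 and 5.91 CPM in the DIP2C-/- clones and 3.11, 4.42, 8.43, 6.55 and 7.91 CPM in the DIP2C+/- clones, with overlapping groups and a log2 fold change of -0.17 ± 0.37 (SE, edgeR adjusted p = 0.882).

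None of the genes of ISG15 and its enzymes was called by edgeR or DESeq2 against the parental samples. ISG15 was at 58.7 and 65.7 CPM in the parental samples, 56.1 and 55.1 CPM in the DIP2C-/- clones and 64.8, 101, 68.4, 73.2 and 80.5 CPM in the DIP2C+/- clones. Here H9-A4 was the highest sample, and the DIP2C-/- clones were just below the parental range. Its log2 fold change was 0.18 ± 0.17 (SE, edgeR adjusted p = 0.682) over all clones. UBE2L6, the enzyme that conjugates ISG15, was at 18.1 and 24.5 CPM in the parental samples, 13.2 and 14.3 CPM in the DIP2C-/- clones and 16.5, 17, 12.2, 31.8 and 19.2 CPM in the DIP2C+/- clones, with overlapping groups and a log2 fold change of -0.28 ± 0.30 (SE, edgeR adjusted p = 0.732). USP18, which removes ISG15 from proteins and restrains the type I receptor, ranged from 10.6 to 21 CPM and had a log2 fold change of -0.15 ± 0.21 (SE, edgeR adjusted p = 0.808).

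Of the antiviral effectors, OAS3 was lower in every clone and SAMD9 differed widely between clones. OAS3 (chr12:113375856-113414265, plus strand) was at 107 and 106 CPM in the parental samples, 35.5 and 32.4 CPM in the DIP2C-/- clones and 34.1, 80.9, 87.2, 72.7 and 35.8 CPM in the DIP2C+/- clones. The samples fell into 3 levels, with the parental samples highest, H9-A4, A9-A12 and G1-A5 at 72.7 to 87.2 CPM, and both DIP2C-/- clones together with F6-A7 and A6-C9 at 32.4 to 35.8 CPM. The log2 fold change was -1.02 ± 0.31 (SE, edgeR adjusted p = 0.282) over all clones, -1.65 ± 0.42 (SE, edgeR adjusted p = 0.301) in the DIP2C-/- clones and -0.78 ± 0.33 (SE, edgeR adjusted p = 0.418) in the DIP2C+/- clones. Without H9-A4, OAS3 fell over the other 6 clones by 1.14 ± 0.30 on the log2 scale (SE, edgeR adjusted p = 0.036) and in the DIP2C-/- clones by 1.65 ± 0.39 (SE, edgeR adjusted p = 0.0387). The promoter of OAS3 carries the response element matches printed above.

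SAMD9 (chr7:92728826-92747336, minus strand), a restriction factor of poxviruses, was at 4.24 and 4.96 CPM in the parental samples, 10.6 and 10.5 CPM in the DIP2C-/- clones and 4.57, 1.08, 19.6, 18.3 and 10.2 CPM in the DIP2C+/- clones. A9-A12 and G1-A5 were highest, H9-A4 was the lowest of all samples and F6-A7 was at the parental level, so that the highest sample exceeded the lowest by 18.3-fold. Its log2 fold change was 1.22 ± 0.80 (SE, edgeR adjusted p = 0.528), and 1.41 ± 0.47 without clone H9-A4 (SE, edgeR adjusted p = 0.0936). BST2, which holds budding virions at the cell surface, was at 157 and 194 CPM in the parental samples, 175 and 192 CPM in the DIP2C-/- clones and 230.5, 151, 202, 209.9 and 214 CPM in the DIP2C+/- clones, with overlapping groups and a log2 fold change of 0.16 ± 0.17 (SE, edgeR adjusted p = 0.72).

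Among the remaining effectors, the log2 fold change over all clones was 0.76 for the exonuclease ISG20, -0.81 for IFIT1, -0.79 for OAS2, 0.44 for IFIT2, 0.38 for IFIT3, 0.19 for MX2, 0.18 for IFIT5, 0.03 for OASL and -0.03 for MX1. With all 9 samples edgeR called none of these, ISG20 being called by DESeq2 without H9-A4, and adjusted p-values from edgeR ran from 0.417 for IFIT1 to 0.993 for OASL. IFIT2 and IFIT3, neighbours on chromosome 10, were both lowest in H9-A4, at 0.227 and 0.396 CPM, and both highest in G1-A5, at 5.17 and 6.11 CPM. IFIT1 in the same cluster was below both parental samples in every clone, at 0.674 to 1.47 CPM against 1.87 and 1.88 CPM.

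The PARP9 group, which acts in chromatin and in interferon signalling, had small fold changes and no gene called by edgeR or DESeq2. PARP9 was at 23 and 19.4 CPM in the parental samples, 14.1 and 19.2 CPM in the DIP2C-/- clones and 12.4, 14.6, 19.1, 24 and 18.5 CPM in the DIP2C+/- clones, with overlapping groups and a log2 fold change of -0.28 ± 0.24 (SE, edgeR adjusted p = 0.647). PARP14 was at 92.6 and 93.3 CPM in the parental samples, 115 and 108 CPM in the DIP2C-/- clones and 106, 89.8, 96.7, 116 and 113 CPM in the DIP2C+/- clones. Every clone but H9-A4 was above both parental samples by a small margin, and the log2 fold change was 0.19 ± 0.13 (SE, edgeR adjusted p = 0.541). The ubiquitin ligase DTX3L had a log2 fold change of -0.17 ± 0.20 (SE, edgeR adjusted p = 0.757). PARP9 and DTX3L start head to head and overlap on opposite strands of chromosome 3, where reads cannot be told apart without strand.

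Of the remaining interferon-induced genes, IFI35 (chr17:41158757-41166473, plus strand), which interacts with NMI in innate signalling, was at 4.63 and 3.08 CPM in the parental samples, 6.97 and 6.68 CPM in the DIP2C-/- clones and 12.4, 2.27, 12.6, 7.44 and 8.88 CPM in the DIP2C+/- clones. Every clone but H9-A4 was above both parental samples, and H9-A4 was below both. With all clones its log2 fold change was 1.07 ± 0.54 (SE, edgeR adjusted p = 0.409). Without H9-A4, IFI35 rose by 1.22 ± 0.31 (SE, edgeR adjusted p = 0.0307) over the other 6 clones and by 1.42 ± 0.32 (SE, edgeR adjusted p = 0.021) in the DIP2C+/- clones. IFI6, a mitochondrial and endoplasmic reticulum protein, was at 1.54 and 1.04 CPM in the parental samples, 0.452 and 0.777 CPM in the DIP2C-/- clones and 0.549, 1.19, 0.698, 1.97 and 0.97 CPM in the DIP2C+/- clones, a level of few reads, with a log2 fold change of -0.49 ± 0.51 (SE, edgeR adjusted p = 0.725). IFI44L was at 0.197 to 0.581 CPM, with a log2 fold change of -0.07 ± 0.50 (SE, edgeR adjusted p = 0.966).

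**Figure D4:**
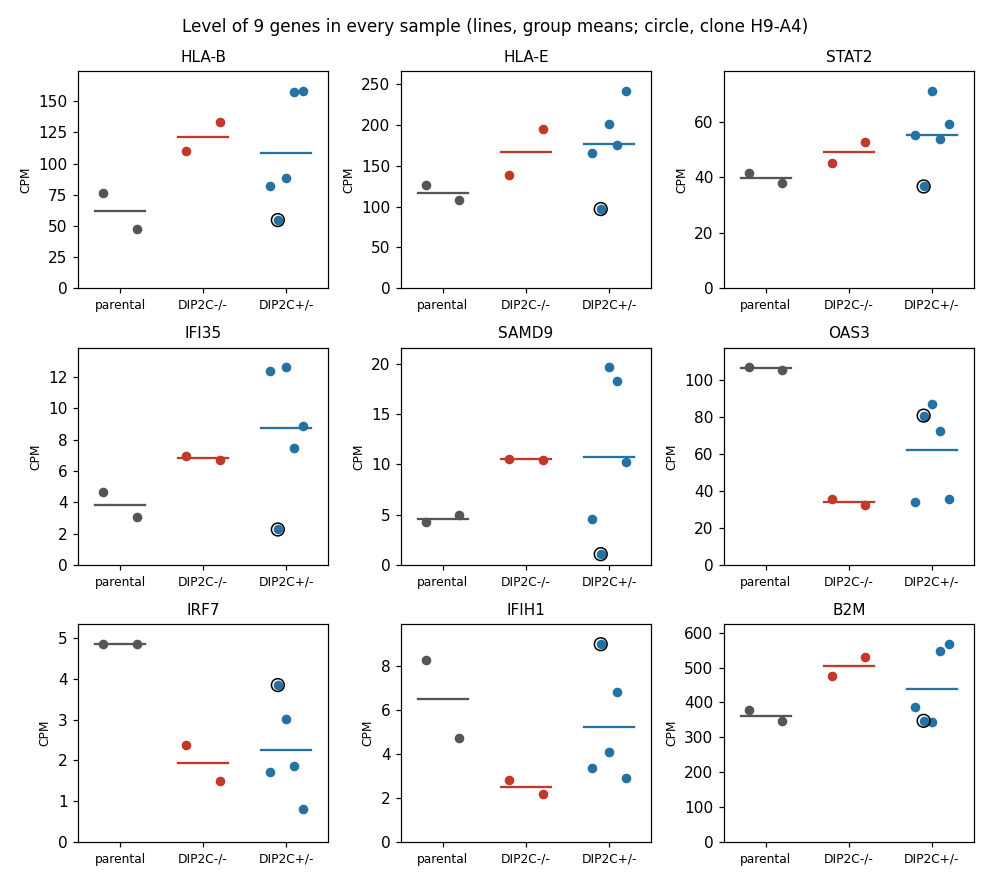
CPM of 9 genes in every sample by group, with a point for each sample, a line at the group mean and a circle around clone H9-A4. Each vertical axis starts at 0. H9-A4 lies with or below the parental samples for HLA-B, HLA-E, STAT2, IFI35 and SAMD9, and OAS3 and IRF7 are lower than both parental samples in every clone.

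Gene dosage was examined by setting the DIP2C+/- clones against the DIP2C-/- clones. With edgeR, 0 of the 42 genes passed the test (background 0%), and the same count was 0 without H9-A4 (0%). DESeq2 called 0 of the 42 genes (0.0386%). At an unadjusted p-value under 0.05 there were 5 genes, all higher in the DIP2C+/- clones, namely TAPBP, NLRC5, ISG15, USP18 and OAS3 (11.9% of 42, background 5.57%). The median log2 difference of the 42 genes was 0.13, against 0.01 over all genes tested, with 32 genes higher and 10 lower in the DIP2C+/- clones. OAS3 differed by 0.87 ± 0.36 (SE, edgeR adjusted p = 0.878) and TAPBP by 0.50 ± 0.13 (SE, edgeR adjusted p = 0.878). HLA-B differed by -0.17 ± 0.37 (SE, edgeR adjusted p = 0.972), IFI35 by 0.35 ± 0.53 (SE, edgeR adjusted p = 0.951) and SAMD9 by 0.03 ± 0.76 (SE, edgeR adjusted p = 0.999), and these errors leave room for a difference in either direction.

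The rest of the pathway was read from a list of 96 genes around the 46, of which 69 passed the filter. With all 9 samples, edgeR called 0 of the 69 over all clones, against 9 higher and 3 lower at an unadjusted p-value under 0.05 (in both directions, 13.4% of all genes) and 1 higher and 1 lower by DESeq2 (1.96% of all genes). Without H9-A4, edgeR called 6 higher and 3 lower of 68 genes, where 4.48% and 4.47% of all genes were called. In the order of the pathway, those described here were IL10RB of 9 receptor and kinase genes, MAVS, IFI16 and TLR3 of 8 genes of nucleic acid sensing, SP100, CMPK2 and IFI30 of 26 other interferon-induced genes, and HLA-H of 13 other class I genes. No gene was called among 3 constitutive proteasome subunits or among the class II genes, of which 3 of 8 passed the filter and whose 8 levels summed to 1.75 to 3.17 CPM.

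MAVS, the mitochondrial adaptor of the RNA sensors, was at 99 and 86.8 CPM in the parental samples, 144 and 159 CPM in the DIP2C-/- clones and 129, 79.8, 157, 139 and 164 CPM in the DIP2C+/- clones and rose without H9-A4 by 0.68 ± 0.14 (SE, edgeR adjusted p = 0.0108). IFI16, a sensor of nuclear and cytosolic DNA, differed widely, at 19.3 and 23.4 CPM in the parental samples, 177 and 183 CPM in the DIP2C-/- clones and 241, 0.34, 231, 112 and 206 CPM in the DIP2C+/- clones. It was almost undetected in H9-A4 and far above the parental samples in the other 6 clones, in which it rose by 3.17 ± 0.29 (SE, edgeR adjusted p = 7.02e-05). With H9-A4 included, the log2 fold change of IFI16 was 2.94 ± 1.32 (SE, edgeR adjusted p = 0.37). The nuclear body gene SP100 rose without H9-A4 by 0.99 ± 0.17 (SE, edgeR adjusted p = 0.00478), the interleukin 10 and lambda interferon receptor chain IL10RB by 0.73 ± 0.16 (adjusted p = 0.0182) and the class I pseudogene HLA-H by 0.92 ± 0.22 (adjusted p = 0.0224).

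TLR3, the endosomal sensor of double-stranded RNA, was at 9.37 and 8.61 CPM in the parental samples, 2.32 and 3.11 CPM in the DIP2C-/- clones and 3.78, 2.44, 4.46, 7.14 and 2.86 CPM in the DIP2C+/- clones. All 7 clones were below both parental samples, and without H9-A4 it fell by 1.23 ± 0.33 on the log2 scale (SE, edgeR adjusted p = 0.0437). CMPK2, a mitochondrial nucleotide kinase, was at 3.91 and 3.13 CPM in the parental samples, 0.387 and 0.674 CPM in the DIP2C-/- clones and 0.853, 9.29, 0.537, 1.63 and 0.511 CPM in the DIP2C+/- clones. H9-A4 was the highest sample and the other 6 clones were below both parental samples, and without H9-A4 it fell by 2.22 ± 0.48 on the log2 scale (SE, edgeR adjusted p = 0.0153). IFI30, a lysosomal thiol reductase, fell without H9-A4 by 0.76 ± 0.18 on the log2 scale (SE, edgeR adjusted p = 0.0226). Genes with the largest log2 fold change of their list that edgeR did not call were at 2.19 ± 0.75 for LGALS3BP (SE, edgeR adjusted p = 0.311), with 9.09 and 9.24 CPM in the parental samples and 7.8 to 75.2 CPM in the clones, 1.60 ± 1.01 for HLA-DRB1 (adjusted p = 0.514) and -1.17 ± 0.81 for SOCS1 (adjusted p = 0.553). HLA-DRB1 and SOCS1 were at no more than 1.45 and 1.89 CPM in any sample.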

How the data were processed

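RNA from parental RKO cells (2 samples) and from clones of genotype DIP2C-/- (2) and DIP2C+/- (5), harvested after 48 h of growth, was sequenced by the authors on the Ion Proton system and aligned to hg19 with TopHat2 2.0.4. The deposited files hold an estimated count for each gene, quantified with Cufflinks (2.2.1 in the processing notes, and another version in the methods of the study). How the estimated counts were written is not given in the sources used here. They are not whole, but in each sample 98.1% to 98.6% of the low values were whole multiples of 1 step (tolerance 0.01). They were rounded and used as counts, and the fit was repeated on values divided by the step. Totals were 14772593 to 21486483. Intervals and floors from counts cover counting error only. No column of another sample was present, and no batch or date is given.

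Genes were kept by filterByExpr, scaled by TMM and tested by edgeR 4.0.16 (R 4.3.3) with the quasi-likelihood F test over all 9 samples, with 1 coefficient per group and Benjamini-Hochberg adjustment over all 15532 genes, at an adjusted p-value under 0.05. The contrast of all clones weighted each clone equally. Standard errors are the size of the log2 fold change over the square root of F. CPM used TMM library sizes, and log2 CPM a prior count of 2. Levels between genes were compared per kb of the canonical transcript of GENCODE 44 on GRCh37. The fit was also run on simulated counts with known changes, and the outcome is not given here. Alternatives were DESeq2 size factors, the DESeq2 1.42.0 Wald test, library size only, no filter, at least 10 counts in all samples, values divided by the step, only the compared groups, a prior count of 0.5 and each sample left out. DESeq2 without clone H9-A4 was added after the data had been seen.

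Members and lists were chosen with earlier results of these data known. Genes given in every sample were those called in the fit with all 9 samples, or without H9-A4 in the contrast of all clones, the 2 with the largest fold change in each role, and those with a mean of at least 100 CPM. Of the other pathway genes, those called in either fit and the 1 with the largest change per list were named, up to 12. Some genes of the pathway are not reported here.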

Additional observations from a re-analysis of the deposited data

Results flagged for a closer look

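Within the 5 DIP2C+/- clones, 55 genes were examined for a sample whose gap to the nearest other clone in log2 CPM, divided by the range of the group in log2 CPM, exceeded Dixon's critical value of 0.71. The genes were the 42 tested, DIP2C and the other pathway genes picked by the naming rule given above. Chance alone marks about 1 in 20 groups. The 4 that exceeded it were TAP1 in G1-A5, at 148 CPM (gap 0.714 of the log2 range), NLRC5 in G1-A5, at 33.8 CPM (0.735), IL10RB in H9-A4, at 15.5 CPM (0.738), and IFI16 in H9-A4, at 0.34 CPM (0.878). TAP1 and NLRC5 were highest in the same clone, which had the largest deposited total (21486483). In totals divided by the step, G1-A5 (24863895) was close to H9-A4 (24669610) and A9-A12 (23838181). The part of depth in the high values of TAP1 and NLRC5 was not tested. IL10RB and IFI16 were lowest in H9-A4. Both were examined because edgeR called them only without that clone, so the chance rate does not apply to them.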

How the results depend on the processing

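Counts of called genes depended most on clone H9-A4 and on the model of the spread. In the DIP2C-/- clones, the count of higher genes moved from 0 to 3 with only the compared groups and to 1 by DESeq2 without H9-A4, and that of lower genes from 0 to 1 by DESeq2, 1 with only the compared groups, 0 to 1 with 1 sample left out and 2 by DESeq2 without H9-A4. In the DIP2C+/- clones, higher genes moved from 0 to between 0 and 3 with 1 sample left out, with 3 without H9-A4, and to 8 by DESeq2 without H9-A4, which also called 2 lower. Over all clones, higher genes were 0 to 2 and lower genes 0 to 1 with 1 sample left out, both reached without H9-A4, and 6 and 2 by DESeq2 without H9-A4. Genes with all clones above both parental samples went from 0 to between 0 and 8 with 1 sample left out (8 without H9-A4, 2 without parental 1, 1 without parental 2), and genes with all clones below them were 4 to 5 (5 without parental 2 and 5 without G1-A5). Leaving out a sample relaxes this rule, so apart from rescaling and the filter these counts could only stay or rise. Genes at least 2-fold above the parental mean in 4 or more clones went from 1 to 2 with no filter on low counts and to between 1 and 3 with 1 sample left out (3 without parental 1). Genes at least 2-fold below it went from 2 to between 0 and 2 with 1 sample left out, with 0 without F6-A7 or without A6-C9 and 1 without E3, C10 or G1-A5. The rule asked for 4 clones also when 1 had been left out. With all samples IRF7 passed it through C10, F6-A7, G1-A5 and A6-C9, and OAS3 through E3, C10, F6-A7 and A6-C9. Leaving out 1 of these clones can therefore lower the count by the rule itself. The cause of the other shifts was not tested.

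Over all clones, the log2 fold change of HLA-C (0.0145) was -0.0169 with library size only and -0.0753 to 0.0984 with 1 sample left out, below 0 without parental 1 (-0.0395), A9-A12 (-0.0753) or A6-C9 (-0.0083). That of TAP1 (-0.0434) was -0.1449 to 0.0353 with 1 sample left out, above 0 without parental 1 (0.0353), E3 (0.0012) or C10 (0.0016). Of 538 values for 34 genes, 516 kept direction and side of the threshold, 15 crossed to an adjusted p-value under 0.05, and 7 reversed. No paired analysis was possible because the labels of the clones carry no replicate number that the groups share. Having 2 parental samples, no intact clone from the targeting procedure and 1 library per clone limits every comparison, and genes under 1 CPM rest on few reads.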

Other observations

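IFNLR1, the specific chain of the lambda interferon receptor, was chosen after its values were seen and was at 28.6 and 23.9 CPM in the parental samples, 8.71 and 12.5 CPM in the DIP2C-/- clones and 12.1, 24.9, 22.8, 23.2 and 13.8 CPM in the DIP2C+/- clones. The low samples were E3, C10, F6-A7 and A6-C9, the clones in which OAS3 was at its lowest level. This split of the clones crosses the genotypes, since it puts both DIP2C-/- clones with 2 of the 5 DIP2C+/- clones, and it was not tested.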
